A study of Mus musculus with 2 samples.

Results

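The 10 genes described here belong to the transforming growth factor-β (TGF-β) and activin pathway. They are the rows with the symbols Tgfb1, Inhba, Tgfbr1, Tgfbr2, Eng, Smad3, Smad7, Skil, Tgfbi and Id1, out of 16263 genes that both deposited tables list. The set was chosen with values of these libraries already known, so the values below describe the genes and test nothing. RNA sequencing measured their transcripts in macrophages grown from mouse bone marrow, as 2 libraries. One library came from mice labelled SIRPalpha-/- (SIRPα-KO) and the other from wild-type (WT) mice, and the labels give C57BL/6 as the strain of both. In both groups marrow cells were cultured for 5 days with M-CSF and then activated for 6 h with 20 ng/ml interferon-γ and 100 ng/ml lipopolysaccharide (LPS), and both received the reagent labelled mCD47.ex. Cells from 5 mice of each genotype were mixed before extraction, so each group is 1 library and no difference has a replicate check. The sources used here state neither the age and sex of the mice nor the design of the knockout allele.

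TGF-β ligands are secreted in a latent form, cut by the protease furin, and released next to cells that carry the receptors. A type II receptor binds the ligand and phosphorylates a type I receptor, which phosphorylates Smad2 and Smad3 (after TGF-β or activin) or Smad1 and Smad5 (after bone morphogenetic proteins, BMPs). These join Smad4 in the nucleus, where they switch on target genes, among them genes for inhibitors of the pathway itself. In macrophages TGF-β is known for restraining inflammatory activation and for supporting repair and matrix genes, and activin A is secreted by macrophages after LPS.

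All 10 genes had lower values in the SIRPα-KO library than in the WT library, though for Smad3 the difference was within counting error. For 6 of them it was at least 2-fold. The matrix gene Tgfbi stood furthest out, at 1.27 FPKM in SIRPα-KO against 61.7 FPKM in WT. The type I receptor Tgfbr1, the co-receptor Eng, the activin subunit Inhba, the inhibitory Smad gene Smad7 and the target Id1 were the others past 2-fold. FPKM adjusts fragment counts for transcript length and library size, so levels can be compared between genes. Differences are given as SIRPα-KO minus WT on the scale log2(FPKM + 1), which understates the differences of low genes, and a gene is called higher or lower where it differs by at least 2-fold on that scale. A minimum of 1 FPKM in either library kept 10092 genes, of which 4.3% were called lower, 3.43% higher and 7.73% either way, and the median difference over them was 0.06. The members' median was -1.06. Because the members were picked from this same contrast, nothing is read from that gap.

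This minimum was passed by 9 of the 10 genes. Smad3 was below it in both libraries, and Smad7 and Id1 passed through their WT values alone, so that these 2 could enter only as genes that were lower in SIRPα-KO.

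**Figure D1:**
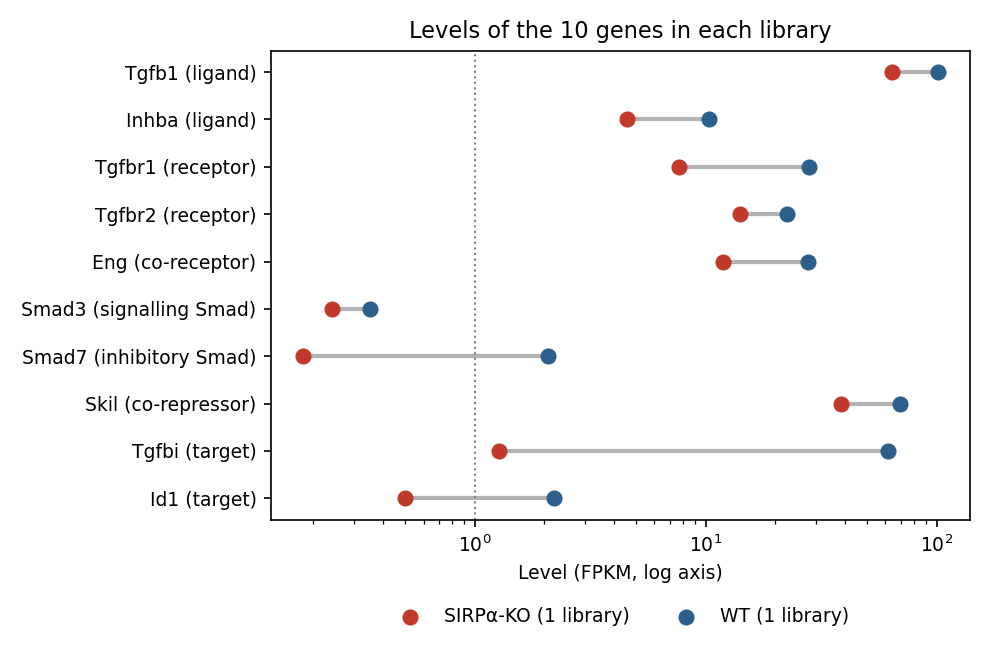
Level of each of the 10 genes (FPKM, log axis) in the SIRPα-KO library (red) and the WT library (blue), 1 library each, with the minimum of 1 FPKM as a dotted line. Every red point lies left of its blue point, by the widest margin for Tgfbi and Smad7.

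The libraries held about 11220000 (SIRPα-KO) and 11200000 (WT) reads, as read from the steps between low values. Sirpa, the targeted gene, was at 71.5 FPKM in SIRPα-KO and 154 FPKM in WT, so its transcript was still present in the library labelled as the knockout, and the tables do not tell whether it was intact. The cells carried macrophage genes at like summed levels, with 12 identity markers adding up to 14760 FPKM in SIRPα-KO and 14640 FPKM in WT. Lyz2 alone gave 7208 and 7106 FPKM of these sums. Over the 12 markers the median difference was 0.01, with a range of -1.17 to 0.35, and 1 of them, Csf1r, was called lower (110 against 248 FPKM). Neutrophil markers summed to 276 FPKM in SIRPα-KO and 528 FPKM in WT, with 5 of 8 called lower, and dendritic cell markers to 35.9 and 15.6 FPKM, with 2 of 4 kept markers called higher. B cell markers summed to 2.47 and 5.91 FPKM, T and NK cell markers to 15.01 and 16.3 FPKM, and stromal markers to 12.5 and 10.9 FPKM, with none called. Xist, an X-linked RNA made in female cells, had 0.91 FPKM in SIRPα-KO against 47.5 FPKM in WT, and the Y-linked Ddx3y, Kdm5d and Eif2s3y were listed at 0 in WT alone, so genotype and sex cannot be told apart. In such bulk libraries, fewer cells of a type and less RNA per cell cannot be told apart either.

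Among the ligands, Tgfb1 was the most abundant member of the set in both libraries. Tgfb1 encodes TGF-β1, the main TGF-β of immune cells. It was at 63.9 FPKM in SIRPα-KO and 101 FPKM in WT, above 93.1% and 95.4% of all genes of those libraries. The level was 1.59-fold lower in SIRPα-KO, with an interval of 1.49 to 1.69 for counting error (95%, exact, from about 1541 and 2441 reads), and was short of the 2-fold limit. Such intervals cover the counting of reads and nothing of the variation between mice. Platelets also store TGF-β1, and megakaryocyte and platelet markers summed to 180 FPKM in SIRPα-KO and 55.4 FPKM in WT, with Pf4 at 148 and 37.3 FPKM. Their part in the Tgfb1 value was not tested.

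Inhba, whose product pairs with itself to form activin A, was at 4.55 FPKM in SIRPα-KO and 10.3 FPKM in WT. This was 2.26-fold lower, with a counting interval of 1.71 to 2.98, and a log2 difference of -1.02, at the edge of the limit. It was short of 2-fold when both libraries were scaled to the same sum. The level of Tgfb1 was 14 times that of Inhba within SIRPα-KO and 9.85 times within WT, so both ligands were lower but not in proportion.

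The other ligands fell on both sides. Of 20 ligand genes on the list, 17 were analysed and 5 passed the minimum, Tgfb1 and Inhba among them. Of the other 3 genes 1 was called higher and 1 lower, against 3.43% and 4.3% of all genes kept. Bmp2, a BMP that acts through Smad1 and Smad5, was at 8.38 FPKM in SIRPα-KO and 1.19 FPKM in WT, a log2 difference of 2.10. Gdf3, a member of the same superfamily, was at 5.65 FPKM in SIRPα-KO and 12.5 FPKM in WT, a difference of -1.02. Gdf15, a stress-induced cytokine, was at 0.93 and 1 FPKM, about 16 and 17 reads. The counting interval of its ratio ran from 0.444 to 1.98. Tgfb1 was the only abundant TGF-β isoform, since Tgfb2 stood at 0.13 FPKM in SIRPα-KO and was listed at 0 in WT, and Tgfb3 stood at 0.45 and 0.23 FPKM.

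The genes for making TGF-β1 and activin available held, on the log2(FPKM + 1) scale, the largest difference of the 8 pathway lists after Tgfbi. Furin, the protease that cuts the precursors of TGF-β1 and activin, was at 31.1 FPKM in SIRPα-KO and 206 FPKM in WT, a 6.62-fold lower level with a counting interval of 6.27 to 7.0. Lrrc33 (now named Nrros), which tethers latent TGF-β1 to the surface of myeloid cells, went the other way, at 14.9 FPKM in SIRPα-KO and 4.45 FPKM in WT. Within each library the level of Tgfb1 was thus 4.28 times that of Lrrc33 in SIRPα-KO and 22.8 times in WT, while Furin was 0.486 and 2.03 times Tgfb1. Such ratios between genes of 1 library do not depend on how the libraries are scaled to each other. Thbs1, which encodes the TGF-β activator thrombospondin 1, was at 49.7 and 30.9 FPKM, and Itgav, the αV integrin chain that takes part in activation, at 32.4 and 40.0 FPKM, neither called. Bmp1, a protease that frees latent complexes from the matrix, was just short of the limit at 4.56 and 1.87 FPKM. Over this list 8 of 11 analysed genes passed the minimum, with 1 higher, 1 lower and 6 neither. Over all genes kept, 3.43% were higher and 4.3% lower. The median difference of the list was 0.05, against 0.06 over all genes kept.

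Fst, which encodes follistatin, a secreted protein that binds and neutralizes activin, was at 22.7 FPKM in SIRPα-KO and 6.18 FPKM in WT. This was 3.67-fold higher, with a counting interval of 2.85 to 4.82. As Inhba was lower in the same library, the level of Fst was 4.99 times that of Inhba within SIRPα-KO and 0.601 times within WT. Other extracellular binders were higher without reaching 2-fold on the log2 scale used, Dcn (decorin) at 4.06 and 1.95 FPKM and Fstl1 at 2.32 and 1.29 FPKM.

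The 3 receptors of the set were lower in unequal measure. Tgfbr1, the type I TGF-β receptor kinase, was at 7.65 FPKM in SIRPα-KO and 28.1 FPKM in WT, a 3.67-fold lower level with a counting interval of 3.32 to 4.06. Tgfbr2, the type II receptor that binds TGF-β first, was at 14.05 FPKM in SIRPα-KO and 22.5 FPKM in WT, which was 1.6-fold lower (1.44 to 1.79) and short of the limit. The order of the pair therefore differed between the libraries: Tgfbr1 was at 0.544 times the level of Tgfbr2 in SIRPα-KO and at 1.24 times in WT.

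Eng encodes endoglin, a co-receptor that works with the type I receptor ALK1. Its level was 11.9 FPKM in SIRPα-KO and 27.8 FPKM in WT, 2.34-fold lower with a counting interval of 2.08 to 2.63. Acvrl1, the gene for ALK1 itself, was at 5.95 and 18.7 FPKM, a log2 difference of -1.50 against -1.16 for Eng. Both genes are also known from endothelial cells. The 8 endothelial markers summed to 26.9 FPKM in SIRPα-KO and 21.1 FPKM in WT. Kdr alone gave 19.7 and 12.3 FPKM of these sums. None of the 5 that passed the minimum was called, and their median difference was -0.16. Tek was listed at 0 in both libraries.

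Of 14 receptor genes on the list 13 were analysed and 8 passed the minimum. Of the 5 of these outside the set, 2 were called lower and none higher, against 4.3% and 3.43% of all genes kept. They were Acvrl1 and Acvr1b, the type I receptor for activin, at 2.53 FPKM in SIRPα-KO and 7.73 FPKM in WT. The other 3 were not called, with Bmpr2 at 6.71 and 9.53 FPKM, the activin receptor Acvr2a at 2.5 and 1.61 FPKM and Acvr1 at 20.3 and 22.9 FPKM. The median difference of these 5 was -0.45, against 0.06 over all genes kept. Below the minimum, the co-receptor Tgfbr3 was at 0.83 and 0.14 FPKM.

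**Figure D2:**
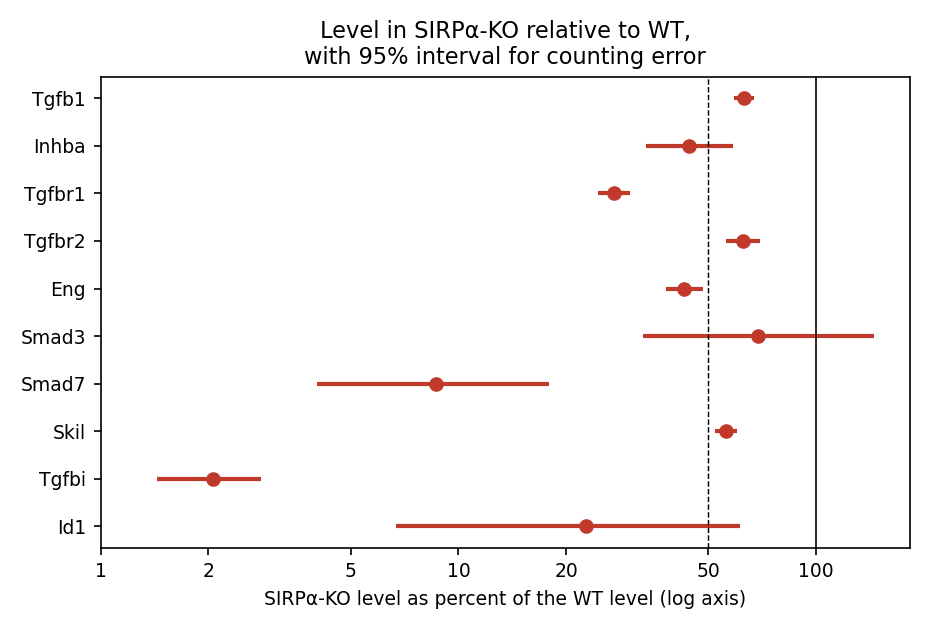
Level of each gene in SIRPα-KO as a percent of its WT level (log axis, no pseudocount), with the 95% interval for counting error from the estimated reads; the solid line is equality and the dashed line is 50%. The interval of Smad3 crosses both lines, those of Inhba and Id1 cross 50%, and Tgfbi (2.06%) and Smad7 (8.65%) lie far to the left.

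Smad3, the signalling Smad most tied to TGF-β responses, was scarce in both libraries. It was at 0.24 FPKM in SIRPα-KO and 0.35 FPKM in WT, about 14 and 20 reads, and a difference was not detectable at this depth, since the counting interval of the ratio ran from 0.327 to 1.45. Smad2, which carries the same signals, was at 7.37 and 5.26 FPKM, and the shared partner Smad4 at 16.5 and 15.4 FPKM. Smad2 was therefore at 30.7 times the level of Smad3 within SIRPα-KO and at 15 times within WT. Both ratios rest on the few Smad3 reads, so nothing is read from the gap between them.

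Smad7 blocks the type I receptors and recruits ubiquitin ligases to them, and it is itself switched on by TGF-β. It was at 0.18 FPKM in SIRPα-KO and 2.08 FPKM in WT, about 9 and 99 reads. The level was 11.6-fold lower, with a counting interval of 5.58 to 24.8, although the difference with the pseudocount was -1.38. Smad6, the other inhibitory Smad, which acts mainly on BMP signals, was at 0.06 FPKM in SIRPα-KO and 2.08 FPKM in WT, about 2 and 69 reads, a ratio with a counting interval of 0.00344 to 0.109. Like Smad7 it passed the minimum through WT alone. Smad1, which carries BMP signals, was at 3.02 and 9.98 FPKM. Of the 8 Smad genes 6 passed the minimum, with 3 lower (Smad6, Smad1 and Smad7), none higher and 3 neither (Smad2, Smad4 and Smad5). Of the 5 of these outside the set, 2 were lower and none higher, against 4.3% and 3.43% of all genes kept. Their median difference was 0.09, against 0.06 over all genes kept.

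Skil encodes SnoN, a co-repressor that holds Smad2, Smad3 and Smad4 inactive at target genes and is itself a TGF-β target. It was at 38.6 FPKM in SIRPα-KO and 69.2 FPKM in WT, 1.79-fold lower (1.67 to 1.92) and short of the limit, at -0.83 on the log2 scale. Ski, its relative, was at 31.5 and 36.8 FPKM, so Skil stood at 1.23 times Ski in SIRPα-KO and 1.88 times in WT. Tgif1, another co-repressor of Smads, was close to Skil in both respects, at 50.1 and 90.1 FPKM and -0.83.

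The 17 intracellular regulators, Skil among them, all passed the minimum. Of the 16 outside the set, 2 were called lower and none higher, against 4.3% and 3.43% of all genes kept. Their median difference was -0.03, against 0.06 over all genes kept. The lower ones were Pmepa1, a TGF-β-induced inhibitor of Smad activation, at 5.11 FPKM in SIRPα-KO and 15.03 FPKM in WT, and its relative Ldlrad4 at 0.61 and 3.3 FPKM, above the minimum in WT alone. The ubiquitin ligases Smurf1 (8.75 and 9.88 FPKM) and Smurf2 (6.05 and 7.02 FPKM) and the signalling adaptor Tab2 (133 and 112 FPKM) were not called.

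Tgfbi, a secreted matrix protein named for its induction by TGF-β, had the second lowest difference on the log2(FPKM + 1) scale among all 10092 genes kept. Its level was 1.27 FPKM in SIRPα-KO and 61.7 FPKM in WT, about 38 and 1858 reads. This was 48.6-fold lower, with a counting interval of 35.6 to 69.4, and the gene ranked above 43.5% of all genes in SIRPα-KO and above 92.9% in WT. Tgfbi is also abundant in monocytes, whose 6 markers went both ways and summed to 327 FPKM in SIRPα-KO and 358 FPKM in WT. Of these, 2 were called higher, among them F13a1 (66.0 and 19.6 FPKM), and 2 lower, Plac8 (32.7 and 76.8 FPKM) and Ccr2 (7.75 and 17.5 FPKM). Their part in the Tgfbi value was not tested. With 2 libraries a pattern is a single ratio, and the nearest to that of Tgfbi among the 2108 genes within 2-fold of its mean level were those of Xist, Hivep3 (1.89 and 36.8 FPKM) and Rnaset2b (4.69 and 64.1 FPKM).

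Id1, an inhibitor of basic helix-loop-helix factors and a direct target of BMP and TGF-β signals, was at 0.5 FPKM in SIRPα-KO and 2.2 FPKM in WT. These values stand for about 5 and 22 reads, so that the 4.4-fold lower level has a counting interval of 1.63 to 14.9. Its relative Id2 was also lower but not called, at 106 and 185 FPKM. Id3, another relative, was at 0.67 and 1.22 FPKM, about 9 and 17 reads. For Id3 a difference was not detectable, since the counting interval of the ratio ran from 0.208 to 1.25. Eng and Id1 lie on chromosome 2, as Sirpa and the called pathway genes Bmp2 and Pmepa1 do. On this chromosome 8.18% of 807 kept genes were called, against 7.73% of all genes kept. The share covers the whole chromosome, and the region around Sirpa was not examined on its own.

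Other targets of the pathway did not move as a block. Of 15 targets on the list, all kept, 3 were called lower, 1 higher and 11 neither, with Tgfbi and Id1 among the lower. Of the 13 outside the set, 1 was called lower and 1 higher, against 4.3% and 3.43% of all genes kept. Their median difference was 0.07, against 0.06 over all genes kept. Klf10, an early TGF-β target, was at 1.55 FPKM in SIRPα-KO and 6.06 FPKM in WT. In the other direction, Cdkn2b, a cell cycle inhibitor, was at 1.69 and 0.13 FPKM, where the WT value stands for about 2 reads. Cdkn2b passed the minimum through SIRPα-KO alone. The related Cdkn1a was at 546 and 377 FPKM and was not called. Junb (177 and 215 FPKM), Gadd45b (236 and 152 FPKM) and the matrix gene Fn1 (12.02 and 9.38 FPKM) were not called.

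**Figure D3:**
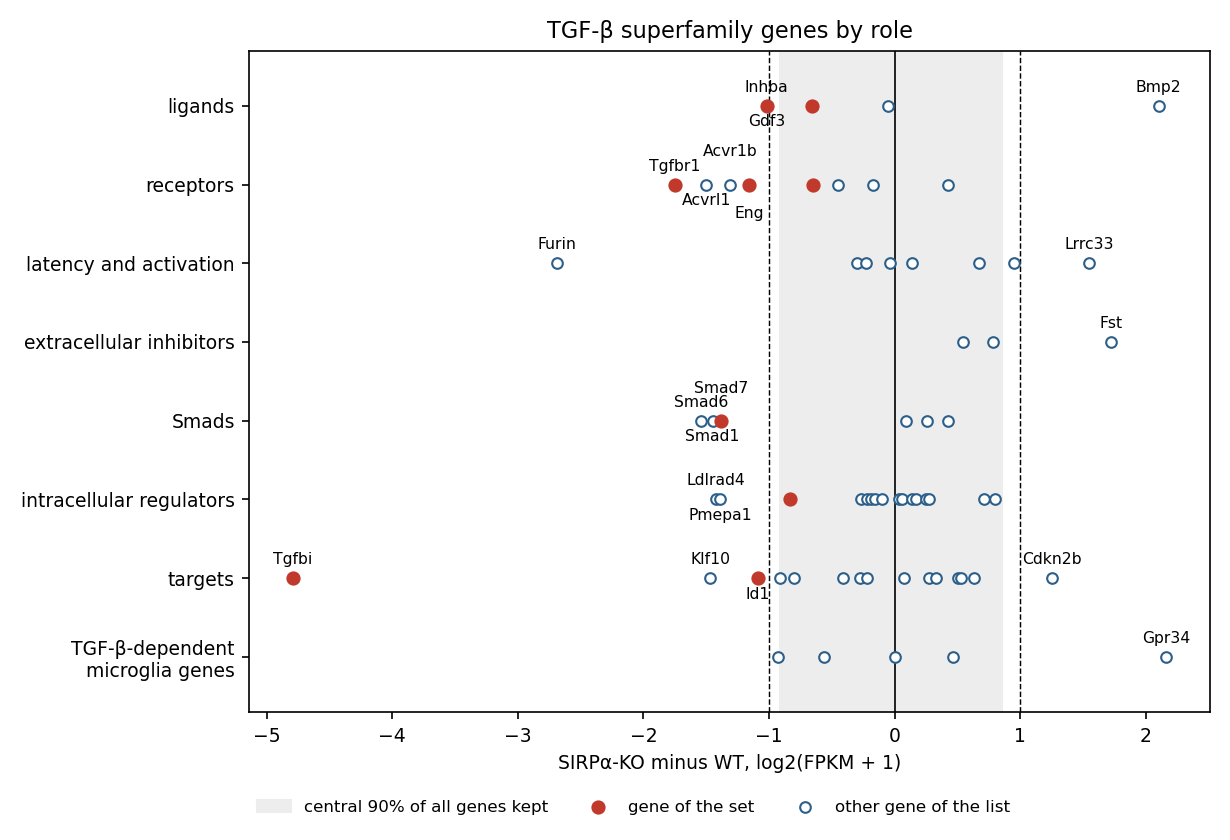
Difference of each gene that passed the minimum (SIRPα-KO minus WT, log2(FPKM + 1)), by role, with the 10 genes in red, other list genes open, called genes named, dashed lines at 2-fold and the central 90% of all genes kept in grey (-0.91 to 0.85). Receptors, Smads and regulators have called genes on the left side alone, Fst and Lrrc33 lie on the right, and the point of Gdf3 is hidden by that of Inhba.

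Leaving out the 10 genes, 84 further genes of the 8 lists were analysed and 58 passed the minimum. Of these 9 were called lower (15.5%, against 4.3% of all genes kept), 5 higher (8.62%, against 3.43%) and 44 neither. Their median difference was 0.02, against 0.06 over all genes kept, and 28 lay below WT and 29 above. The lower values of the chosen 10, within counting error for Smad3, were thus not shared by the further genes as a whole. Among these, single genes stood out in both directions. Of the called ones, Smad6 and Ldlrad4 passed the minimum through WT alone, and Cdkn2b and Gpr34 through SIRPα-KO alone. Each of them could therefore be called only in the direction seen.

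**Figure D4:**
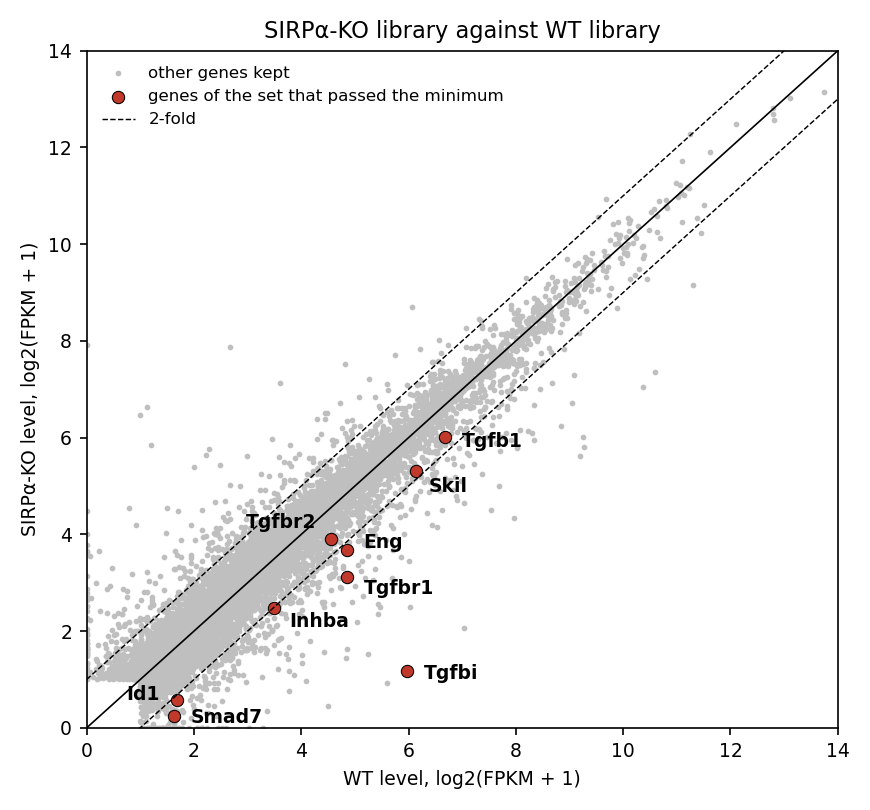
Level in SIRPα-KO (vertical) against WT (horizontal), both as log2(FPKM + 1), for all 10092 genes kept (grey), with the 9 genes of the set that passed the minimum in red; the solid line is equality and the dashed lines are 2-fold. Tgfbi lies far below the lower dashed line, while Tgfb1, Tgfbr2 and Skil lie between the lines.

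The start regions of Tgfbi and Eng are shown because, of the called genes, these 2 carry CAGAC, the core element bound by Smads, more than once. The windows run from 250 bases before to 50 bases after the annotated start, from RefSeq on GRCm38.p6, a later build than the mm9 that the submitters' processing notes name. Capitals mark CAGAC or its reverse complement, which begin 239 and 85 bases before the start in Tgfbi (chr13:56609336-56609635, plus strand) and 214 and 127 bases before it in Eng (chr2:32646345-32646644, plus strand).
Tgfbi: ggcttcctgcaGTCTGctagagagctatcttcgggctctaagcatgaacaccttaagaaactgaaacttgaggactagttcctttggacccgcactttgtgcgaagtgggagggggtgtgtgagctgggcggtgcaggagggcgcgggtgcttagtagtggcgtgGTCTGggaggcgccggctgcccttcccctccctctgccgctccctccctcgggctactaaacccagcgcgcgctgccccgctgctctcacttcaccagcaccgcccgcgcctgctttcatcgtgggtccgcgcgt
Eng: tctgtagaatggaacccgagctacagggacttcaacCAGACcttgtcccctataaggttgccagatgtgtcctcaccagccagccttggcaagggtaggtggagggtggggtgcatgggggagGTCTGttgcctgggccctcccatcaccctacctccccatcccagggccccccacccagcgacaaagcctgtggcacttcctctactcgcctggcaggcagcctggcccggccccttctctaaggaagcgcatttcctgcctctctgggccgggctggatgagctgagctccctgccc
RefSeq windows were matched for 7 of the 10 genes, all but Smad7, Skil and Id1, with 8 windows in all. CAGAC, searched on both strands, was in 4 of the 8 and in 49.6% of all 32851 windows of this length, so its presence sets none of these genes apart. The BMP element GGCGCC was in 2 of the 8, one of them that of Tgfbi, and in 11.9% of all windows. A loose NF-κB site, which can overlap the other motifs, was in 6 of the 8 and 50.8% of all, whereas the AP-1 site TGANTCA (7.81% of all) was in none of the 8. A match describes letters in the window and is not a shown site of binding.

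The 10 genes share little sequence with others. Of the 50-base words of each of the 10 genes, at most 0.586% (Tgfbr2) occur in transcripts of another gene. Exons of Eng overlap those of Fpgs on the other strand over 61 bases, 1.51% of its exon length, and Fpgs was at 0.44 and 0.23 FPKM. The remaining 9 genes overlap no exon of another gene in the annotation used.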

How the data were processed

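Per the labels' protocols, RNA of mixed macrophages from 5 mice per genotype was made into 1 library per group with BGI protocols. The deposited tables give 1 value per gene and name no unit. The values were taken as FPKM made by the authors, since their low steps scale with transcript length. The submitters' processing notes name mm9, R 3.3.3 and DESeq2 without a role, while the aligner and the counting are not stated there. Because FPKM scales by library size, very abundant genes can shift all others.

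The depth was estimated from low values of genes with 1 transcript of 300 to 2000 bases (GENCODE M21 lengths): 75% of 851 SIRPα-KO values and 75.4% of 848 WT values lay within 0.15 of a whole read, against 32.4% and 30.1% with lengths shuffled. As this is not nearly all, no count test was run. Approximate reads used the shortest listed transcript, and intervals of ratios are exact conditional binomial intervals (Clopper-Pearson). Calls used a pseudocount of 1, a 2-fold limit and a minimum of 1 FPKM, with no p-values, since each group is 1 library. The calls and the depth estimate were tested on simulated reads.

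The 10 genes, the 17 gene lists (8 of the pathway, 9 of cell type markers), the motifs and the rule for named genes were chosen with earlier results of these data known. The rule took the 10 genes, the called genes and the 3 most abundant others of each pathway list, the called and the most abundant genes of each marker list, Sirpa, the sex-linked genes and the 3 genes nearest to Tgfbi. Part of these are given only in their list's count, and some results are not reported here. Named outside the rule, after their values were seen, were Tgfb2, Tgfb3, Tgfbr3, Acvr2a, Smurf1, Smurf2, Ski, Id2, Id3, Fn1 and Fpgs. Python 3.11.15, numpy 2.4.6, pandas 2.3.3 and scipy 1.17.1 were used. Gene numbers were matched to a GRCm38 RefSeq table for chromosomes.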

Additional observations from a re-analysis of the deposited data

How the results depend on the processing

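All 10 genes stayed below WT under each of the 5 alternatives of pseudocount and scaling, but these could not have reversed any of them. A pseudocount keeps the direction of a difference. The scalings multiplied the SIRPα-KO values by 0.947, 0.965 and 1.02, while the highest gene, Smad3, was at 68.6% of its WT level. Of the 50 differences, 40 stayed inside the counting interval of the main ratio once its bounds were put on the log2(FPKM + 1) scale. The other 10 came from the pseudocounts of 0.1 and 5 and belonged to Inhba, Tgfbr1, Eng, Smad3, Smad7, Tgfbi and Id1. The members' median was -0.65 with a pseudocount of 5. Genes of the set called lower numbered 2 (Tgfbr1 and Tgfbi) with a pseudocount of 5 and 2 with a 3-fold limit, against 6. A minimum of 5 FPKM left 4, without Smad7 and Id1, and a 1.5-fold limit gave 9. Scaling both libraries to the same sum left 5, without Inhba. Of the further pathway genes, 8 were called higher with a pseudocount of 0.1, 3 with a pseudocount of 5, 11 at 1.5-fold, 3 at 3-fold and 3 with a minimum of 5 FPKM, against 5, and 2 were called lower with a pseudocount of 5 and 1 at 3-fold, against 9. Over all genes the calls were 589 higher and 676 lower with a pseudocount of 0.1, 147 and 187 with 5, 1104 and 1032 at 1.5-fold, and 130 and 140 at 3-fold. A larger pseudocount shrinks the ratios of low genes by construction. No paired analysis was possible because each group is 1 library. Depth limits Smad3, Id1, Id3, Gdf15, Tgfb2 and Tgfb3. It also limits the SIRPα-KO values of Smad6, Smad7 and Ldlrad4 and the WT values of Cdkn2b, Gpr34 and Tgfbr3. Each of these genes rests on 20 reads or fewer in at least 1 library.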

Other observations

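Genes that microglia, the macrophages of the brain, express in dependence on TGF-β were a further list. Of 8 genes 7 were analysed and 5 passed the minimum. Of these 1 was called higher and none lower, against 3.43% and 4.3% of all genes kept. The median difference was 0.00. The higher one was Gpr34, a receptor for lysophosphatidylserine, at 4.31 FPKM in SIRPα-KO and 0.19 FPKM in WT (about 91 and 4 reads). Gpr34 passed the minimum through SIRPα-KO alone. The receptor gene P2ry12 was at 2.76 and 1.74 FPKM, and Sparc at 6.44 FPKM in both.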
